A study of Homo sapiens with 12 samples.

Results

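Fibrillar amyloid-β was compared with control in SH-SY5Y cells, a line derived from a human neuroblastoma and often used as a neuron-like model. By the treatment labels, 3 arrays held cells given fibrillar Aβ (24 h incubation) and 3 held the 24 h control, so 6 of the 12 arrays of the study were used. The other 6 arrays, 3 of oligomeric Aβ (6 h incubation) and 3 of its own control, served only for the comparison of responses at the end. All cells were grown in D-MEM/F-12, and total RNA was read on Affymetrix 3′ expression arrays. Whether the hours were those for which the peptide was aged or those for which cells were exposed to it is not stated, nor is the dose or what the control cells received. Separate cultures are not stated either, and so a p-value here covers the spread between these arrays, which may be technical.

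Amyloid-β is cut from its precursor APP by β- and γ-secretase, and it assembles into soluble oligomers and then into insoluble fibrils, the main component of the plaques of Alzheimer's disease. Fibrils are known to bind to the surface of cells in culture, where integrins and other receptors are among their reported partners. SH-SY5Y cells belong to the noradrenergic type of neuroblastoma, with the transcription factors of sympathetic neurons.

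All values are log2 signals, so a change of 1 is a doubling. A gene was read from its brightest probe set and tested where the mean over the 6 arrays reached the median of all probe sets, log2 3.85, a linear signal of 14.5. This left 11781 genes. Of the noradrenergic markers, 9 of 10 on the array reached that level, among them GATA3, PHOX2A, ISL1 and DBH, but not TH, the first enzyme of catecholamine synthesis. Mesenchymal-type markers reached it for 9 of 14 genes, VIM and TWIST1 included, against 1 of 8 Schwann and glial, 2 of 8 epithelial and 1 of 8 blood and endothelial markers. The log2 of the summed noradrenergic signal was 14.05 to 14.12 with fibrils and 14.02 to 14.15 in the controls, and that of the mesenchymal-type sum was 13.88 to 13.96 and 13.87 to 14.05. The medians of the 6 arrays lay between 3.95 and 4.12. The first principal component, with 28.3% of the variance, separated the groups (scores of −20.0, −7.04 and −14.5 with fibrils against 15.8, 9.93 and 15.7), with fibrillar replicate 2 nearest to the controls.

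With fibrils 33 genes rose and 15 fell, 48 in all at an adjusted p under 0.05 (limma with Benjamini-Hochberg adjustment), which is 0.28%, 0.127% and 0.407% of the genes tested. The genes that rose included ITGA2 and ACTA2, of cell adhesion and contraction, the growth factor HGF, the transcription factors KLF6 and JUND, and the sterol enzymes HMGCS1 and MSMO1. Those that fell included LPCAT1, of membrane lipid metabolism, RNF145, of sterol sensing, and the translation factor EIF5A. The called genes are taken in turn by their known roles, a grouping made after they were called. All gene lists below were drawn up with earlier results of these data known. Their counts are therefore a description and not separate support. The changes called ran from 0.37 to 2.23 in size. They were at least 1.5-fold for 31 genes and at least 2-fold for 7, each of which rose. All 48 had fibrillar values that lay wholly to 1 side of the control values, as did 19.7% of all genes tested. The median change over all genes was −0.00 and the median standard error 0.13.

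The number of genes called depended strongly on single arrays. It was 95 without fibrillar replicate 1, 202 without fibrillar replicate 2 and 4 without fibrillar replicate 3. These calls were 40 higher and 55 lower, 159 and 43, and 2 and 2, so the excess of rises was not kept throughout. It was 5, 55 and 7 without control replicates 1, 2 and 3 (2 higher and 3 lower, 38 and 17, and 4 and 3). Of the 48 genes, ACTA2, RHOB, LPCAT1 and RNF145 were called in all 6 of these fits (adjusted p up to 0.0337). POLR2J4 was called in 4, and 23 genes were called in 3. Of the other genes, 11 were called in 2, 8 in 1, and NFKBIB in 0. A prior variance that did not follow the level gave 0 calls with limma, with 1436 genes at an unadjusted p under 0.05 against 1698 otherwise. With all 12 arrays in the fit 140 genes were called (1.19%), 38 of the 48 among them. Centring each array on its median gave 40 higher and 6 lower, 87.0% higher against 68.8% without centring. At the threshold, RPP25L (adjusted p = 0.0470), ASNS and YRDC (both 0.0474) lay just inside, and SC5D, CLIC1 and UBLCP1 just outside.

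**Figure D1:**
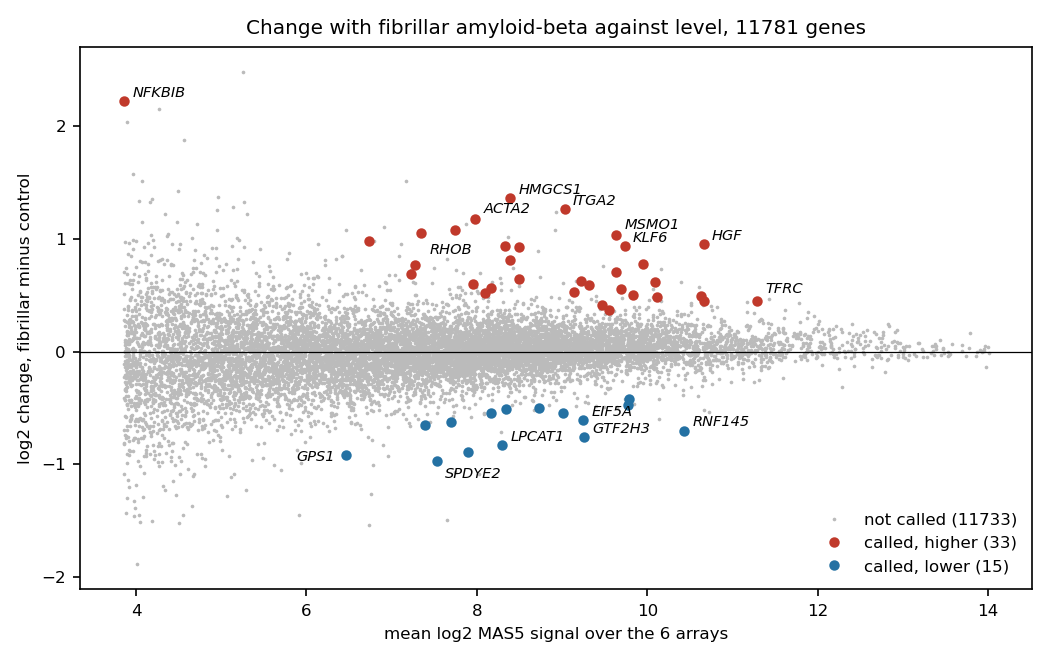
Log2 change, fibrillar less control at 24 h, against the mean log2 signal over the 6 arrays, with 1 point for each of the 11781 genes; the called genes are coloured. The 33 genes that rose and the 15 that fell lie at changes of 0.37 or more in size.

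RHOB, ACTA2 and ITGA2, with known roles in the cytoskeleton and adhesion, were among the 7 genes that at least doubled. RHOB, a small GTPase that acts on actin and on vesicle traffic, had log2 signals of 8.04, 7.70 and 7.86 with fibrils and 6.84, 6.83 and 6.78 in the controls. Every fibrillar array was above every control array, and the controls were close together. The change was 1.05 (SE 0.11, adjusted p = 0.00331). ACTA2, smooth muscle α-actin, had 8.45, 8.43 and 8.82 with fibrils against 7.34, 7.60 and 7.23, a rise of 1.17 (SE 0.13, adjusted p = 0.00331). Here replicate 3 was the highest array and the other fibrillar arrays were alike, again without overlap. ITGA2, the α2 chain of a collagen-binding integrin, had 10.08, 9.15 and 9.76 against 8.35, 8.56 and 8.28, a rise of 1.27 (SE 0.18, adjusted p = 0.0177). Its fibrillar replicate 2 lay nearest to the controls. ACTN1, which cross-links actin filaments at adhesions, rose by 0.62 (SE 0.09, adjusted p = 0.0177), from 9.78 ± 0.11 to 10.40 ± 0.18 (SD, n = 3). Its other 2 probe sets had the same sign but smaller changes, 0.07 and 0.15. Averaged over its probe sets ACTN1 changed by 0.28 and was not called (limma adjusted p = 0.371). The calls of ITGA2 and ACTN1 were lost without fibrillar replicate 3, control replicate 1 or control replicate 3 (adjusted p up to 0.108 for each).

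**Figure D2:**
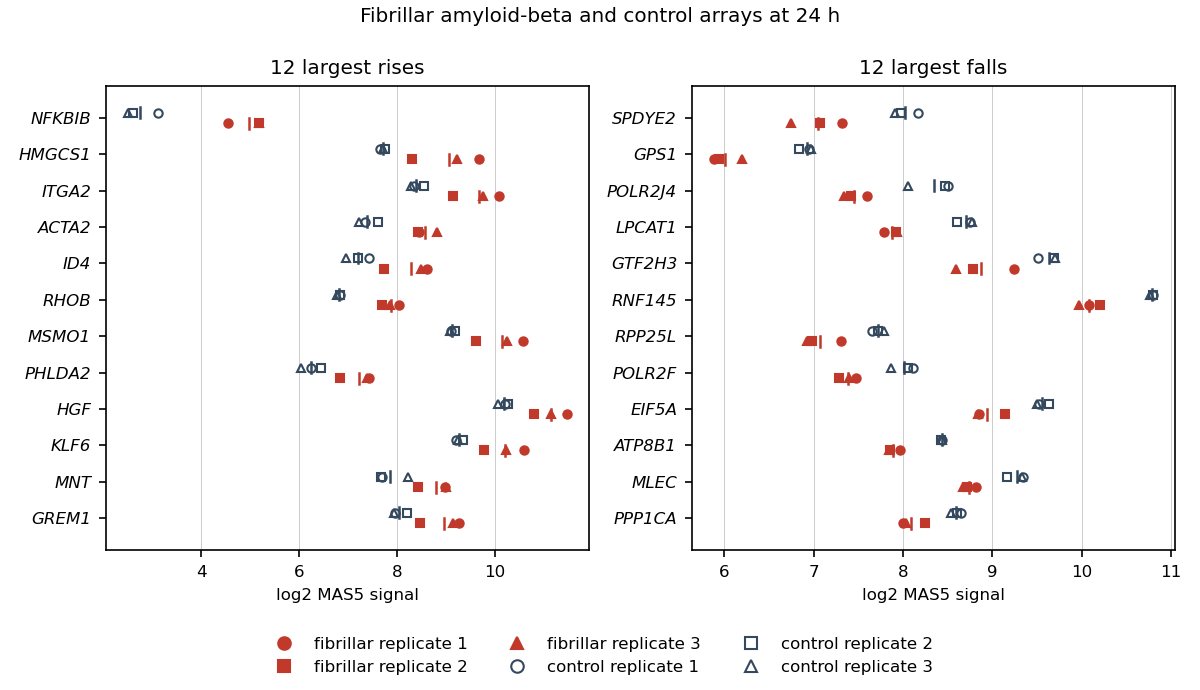
Log2 signal in each of the 6 arrays for the genes with the largest called changes, fibrillar arrays filled and 24 h controls open, with the mean as a short bar; circles, squares and triangles are replicates 1, 2 and 3. ACTA2 and RHOB show tight groups, while HMGCS1, ITGA2 and HGF show a fibrillar replicate 2 that lies nearer to the controls than the other fibrillar arrays.

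Of 26 actin and SRF/MRTF target genes, 2 rose and 0 fell in the limma test, and 11 lay wholly above and 1 wholly below the controls (42.3% and 3.85%, against 10.8% and 8.86% of all genes). The median change was 0.20. The focal adhesion gene VCL stood at 10.37, 10.34 and 10.36 with fibrils and 9.98, 10.09 and 10.11 in the controls (0.30, adjusted p = 0.0711), which did not pass. The lowest p on the other side was that of PFN1, a binder of actin monomers (−0.13, adjusted p = 0.419). Of 11 integrin genes ITGA2 alone was called, and the median was 0.08. ITGB8, the β8 chain, differed by 0.99 (SE 0.25, adjusted p = 0.105).

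Several genes that rose encode secreted factors, receptors and proteins that act on their signals. HGF, a ligand of the MET receptor, had 11.46, 10.80 and 11.15 with fibrils against 10.21, 10.27 and 10.07, a rise of 0.96 (SE 0.13, adjusted p = 0.0177). Fibrillar replicate 1 was the highest, and all 3 were above the controls. The 4 other probe sets of HGF had the same sign, with changes from 0.43 to 0.78. Averaged over its probe sets HGF changed by 0.65 and was not called (limma adjusted p = 0.117). GREM1, a secreted antagonist of BMP ligands, had 9.27, 8.47 and 9.15 against 7.96, 8.21 and 7.94, a rise of 0.92 (adjusted p = 0.047). TNFRSF12A, the receptor of the cytokine TWEAK, rose by 0.81 (adjusted p = 0.0177) from 7.98 ± 0.17 to 8.79 ± 0.22 (SD, n = 3). GAREM1, an adaptor of growth factor receptor signalling, rose by 0.50 and the kinase gene SIK2 by 0.52. DUSP6, a phosphatase that inactivates ERK, rose by 0.56 (adjusted p = 0.047). Without fibrillar replicate 1 the change of DUSP6 was 0.30 and was not called (adjusted p = 0.19). GREM1 and DUSP6 were each called in 1 of the 6 fits lacking an array, HGF, TNFRSF12A, GAREM1 and SIK2 in 3.

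Among 20 genes of ERK feedback, DUSP6 alone was called, 7 lay wholly above and 0 wholly below the controls (35% above, against 10.8% of all genes), and the median change was 0.20. SPRED1, an inhibitor of the Ras to ERK route, differed by 0.45 (adjusted p = 0.0776), and ERRFI1, an inhibitor of the EGF receptor, by 0.70 (adjusted p = 0.086). Of 30 growth factors and receptor tyrosine kinases HGF alone was called, with 5 wholly above and 5 wholly below (16.7% each, against 10.8% and 8.86% of all genes) and a median of 0.09. That median was −0.02 without fibrillar replicate 1. VEGFA, the endothelial growth factor, had 8.76, 9.01 and 8.97 against 8.47, 8.55 and 8.50, a difference of 0.41 (SE 0.09, adjusted p = 0.0662) that did not pass.

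The TGF-β and BMP list had members on both sides. SKIL, a repressor of SMAD transcription factors, had 9.68, 9.59 and 9.58 with fibrils against 8.93, 9.20 and 8.94. The rise was 0.59 (SE 0.08, adjusted p = 0.0177), although only 1 of its other 3 probe sets had the same sign. Those 3 changed by −0.68 to 0.50, so the lowest fell by more than the called rise. Averaged over its probe sets SKIL changed by 0.02 and was not called by limma. ID4, an inhibitor of basic helix-loop-helix factors, had 8.60, 7.74 and 8.50 against 7.42, 7.21 and 6.96. The rise was 1.08 (SE 0.20, adjusted p = 0.0446), with all 3 of its other probe sets of the same sign. Averaged over its probe sets ID4 changed by 0.92 and was not called (limma adjusted p = 0.117). In both genes the groups did not overlap, but SKIL was called in 3 and ID4 in 1 of the 6 fits lacking an array. Over 37 tested members 2 rose and 0 fell, 8 lay wholly above and 5 wholly below the controls (21.6% and 13.5%, against 10.8% and 8.86% of all genes), and the median was −0.00 (0.07 after centring). TGFB3, a ligand of the family, had 5.05, 4.95 and 4.63 against 6.03, 5.79 and 5.72 (−0.97, SE 0.21, adjusted p = 0.0751). ENG, a co-receptor, had 4.59, 4.15 and 4.93 against 5.51, 5.80 and 5.70 (−1.11, SE 0.25, adjusted p = 0.0809). Neither of these passed.

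Of the transcription factors and cofactors that rose, KLF6, a zinc finger factor, had 10.60, 9.78 and 10.22 with fibrils against 9.21, 9.34 and 9.24, a rise of 0.93 (SE 0.15, adjusted p = 0.0268), and its 3 other probe sets had the same sign. JUND, a subunit of the dimeric factor AP-1, had 10.30, 9.69 and 9.97 against 9.23, 9.37 and 9.23, a rise of 0.71 (SE 0.12, adjusted p = 0.0374). In both genes replicate 1 was highest and replicate 2 lowest of the fibrillar arrays, and neither overlapped the controls. MNT, a repressor that pairs with MAX, rose by 0.93 (adjusted p = 0.0443), with its 1 other probe set at −0.12. Rises were also called for MEF2A (0.64), VGLL4, a cofactor that competes with YAP for TEAD factors (0.63), the ETS factor ELK3 (0.49) and CBFB, the partner of RUNX factors (0.45), whose 1 other probe set was at −0.15. MEF2A had 1 of its 3 other probe sets at −0.21, and the 1 other of VGLL4 was at 0.19. Averaged over their probe sets, KLF6 (0.79), MNT (0.41), VGLL4 (0.41), MEF2A (0.24) and CBFB (0.15) were not called. Their limma adjusted p then ran from 0.110 to 0.457. Of 19 YAP and TEAD genes VGLL4 alone was called (median 0.04). KLF6, VGLL4 and ELK3 were called in 3 of the 6 fits without an array, JUND, MNT and MEF2A in 2 and CBFB in 1, with adjusted p up to 0.199.

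The immediate early list, whose genes respond within minutes to growth factor, calcium and stress signals, had 21 members tested. KLF6 and JUND rose and 0 fell in the limma test, 12 lay wholly above and 1 wholly below the controls (57.1% and 4.76%, against 10.8% and 8.86% of all genes), and the median was 0.93, against −0.00 over all genes. FOS, the partner of JUN in AP-1, had 8.16, 5.36 and 5.98 with fibrils against 4.69, 3.49 and 3.87, a difference of 2.49 (SE 0.57, adjusted p = 0.0819). The groups did not overlap, but the fibrillar arrays spread over a wider range than the controls and the difference did not pass. JUN differed by 1.13 (SE 0.29, adjusted p = 0.0999) and the stress factor ATF3 by 1.10 (SE 0.29, adjusted p = 0.11). MYC, which drives growth genes, went the other way (−0.54, SE 0.11, adjusted p = 0.0606). The list mean of fibrillar replicates 1, 2 and 3 lay 1.46, 0.34 and 0.62 above the controls. Without replicate 1 the list median was 0.50 and the differences of FOS, JUN and ATF3 were 1.66, 0.71 and 0.70. Without replicate 2 these 3 were called, at 3.05, 1.48 and 1.49 (adjusted p = 0.0123, 0.00608 and 0.00403). With all 12 arrays in the fit, at the same changes, FOS (adjusted p = 0.0366), JUN (0.0403), ATF3 (0.0474) and MYC (0.0318) passed. In that fit 6 of the 21 genes were called higher and 1 lower, against 94 and 46 of all 11774 genes.

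Promoters are shown for JUND and SKIL, since these were the genes among those that rose with the cyclic AMP response element TGACGTCA in the 250 bases before the start site. For SKIL the rise was that of its brightest probe set, and the average over its probe sets changed by 0.02. Sequences are from RefSeq (GRCh38.p14), which matched 41 of the 48 called genes, 29 that rose and 12 that fell. Capitals mark that element, CCAAT on either strand and TATAAA. JUND lies at chr19:18281623-18281872 on the minus strand, with the element 200 bases before the start, and SKIL at chr3:170357465-170357714 on the plus strand, with it 54 bases before.
JUND: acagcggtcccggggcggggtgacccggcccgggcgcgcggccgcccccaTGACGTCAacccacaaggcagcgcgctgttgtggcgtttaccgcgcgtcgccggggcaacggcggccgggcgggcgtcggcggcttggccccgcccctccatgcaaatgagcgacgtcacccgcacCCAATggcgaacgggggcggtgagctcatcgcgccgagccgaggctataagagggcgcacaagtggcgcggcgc
SKIL: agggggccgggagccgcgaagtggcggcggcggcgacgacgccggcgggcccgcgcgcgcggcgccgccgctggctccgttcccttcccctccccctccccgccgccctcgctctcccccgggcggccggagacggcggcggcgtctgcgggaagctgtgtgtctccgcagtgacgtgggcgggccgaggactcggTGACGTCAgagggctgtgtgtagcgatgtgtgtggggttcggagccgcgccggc
The element stood in 2 of the 29 promoters of genes that rose (6.90%), in 0 of the 12 of genes that fell and in 3.08% of the promoters of all genes tested. The AP-1 site TGANTCA, searched on both strands like each motif here, stood in 0 of 29, in 3 of 12 (25%) and in 3.36%. The CArG box, bound by SRF, was in 0 of 29 and 0 of 12, against 1.01%. GGAATG, the site of TEAD factors, was in 3 of 29 (10.3%), 0 of 12 and 9.07%, and the E-box CACGTG in 3 of 29 (10.3%), 0 of 12 and 9.00%. These are matches of letters within a short window, and nothing is read from counts this small.

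Enzymes of cholesterol synthesis had called rises in HMGCS1 and MSMO1. HMGCS1, which makes the precursor of mevalonate, had 9.67, 8.31 and 9.23 with fibrils and 7.65, 7.76 and 7.71 in the controls. The fibrillar arrays were all higher but far apart, and the controls were nearly equal. The change was 1.36 (SE 0.25, adjusted p = 0.0436), with 0.99 at its 1 other probe set. Averaged over its probe sets HMGCS1 changed by 1.18 and was not called (limma adjusted p = 0.145). MSMO1, a sterol methyl oxidase, had 10.58, 9.62 and 10.25 against 9.10, 9.18 and 9.08, a rise of 1.03 (SE 0.18, adjusted p = 0.0334) with the same order of arrays. SC5D, a later enzyme of the route, had 8.92, 8.73 and 8.89 against 8.46, 8.39 and 8.43 (0.42, SE 0.08) and lay at the threshold. HMGCS1 and MSMO1 were each called in 2 of the 6 fits without an array, those without fibrillar replicate 1 or 2 (adjusted p up to 0.199 and 0.177).

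Of 20 tested genes of cholesterol synthesis and SREBP2 targets 2 rose and 0 fell, 9 lay wholly above and 1 wholly below the controls (45% and 5%, against 10.8% and 8.86% of all genes), and the median was 0.37. The list means of fibrillar replicates 1, 2 and 3 lay 0.64, 0.17 and 0.42 above the controls. On the lower side PMVK, a kinase of the mevalonate route, had the lowest p (−0.22, adjusted p = 0.309). The promoters of the called enzymes are shown with the same capitals, HMGCS1 at chr5:43313413-43313662 on the minus strand and MSMO1 at chr4:165327419-165327668 on the plus strand.
HMGCS1: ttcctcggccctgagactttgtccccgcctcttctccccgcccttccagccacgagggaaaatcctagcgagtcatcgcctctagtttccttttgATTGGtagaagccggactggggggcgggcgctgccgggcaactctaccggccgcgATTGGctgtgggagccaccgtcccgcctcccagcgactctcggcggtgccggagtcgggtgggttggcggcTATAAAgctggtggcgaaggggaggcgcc
MSMO1: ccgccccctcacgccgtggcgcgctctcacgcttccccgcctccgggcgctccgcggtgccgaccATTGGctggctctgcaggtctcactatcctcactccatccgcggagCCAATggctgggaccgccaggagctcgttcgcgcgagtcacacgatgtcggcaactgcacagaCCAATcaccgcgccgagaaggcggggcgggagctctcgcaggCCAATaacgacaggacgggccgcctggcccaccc
HMGCS1 held ATTGG, which is CCAAT on the other strand, at 155 and 100 bases before the start, and TATAAA at 29. MSMO1 held CCAAT on either strand at 185, 139, 76 and 34 bases. CCAAT was in 11 of 29 promoters of genes that rose (37.9%), 5 of 12 of those that fell (41.7%) and 35.3% of all genes tested, and TATAAA in 3 of 29 (10.3%), 1 of 12 (8.33%) and 5.10%. One form of the sterol regulatory element, TCACNCCAC, was in 0 of 29 and 0 of 12, against 0.836%.

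Rises of other metabolic and transport genes were smaller. TFRC, the transferrin receptor that takes up iron, had 11.50, 11.56 and 11.47 with fibrils against 11.10, 11.11 and 10.98. The fibrillar arrays were level with each other and above every control, and the rise was 0.45 (SE 0.06, adjusted p = 0.0177). CERK, the ceramide kinase, rose by 0.53, and SCN9A, a voltage-gated sodium channel, by 0.56, the only call among 20 ion channel genes (median −0.06, and 0.01 after centring). ASNS, the asparagine synthetase, rose by 0.37 (adjusted p = 0.0474), the smallest change called. Rises were also called for PHLDA2, an imprinted growth regulator (0.98), the ring finger gene LONRF2 (0.78), SLAIN1, a binder of microtubule ends (0.77), EVA1A, of autophagy (0.68), SAMD4A, an RNA-binding repressor of translation (0.60), FNDC3A (0.49) and YRDC, a transfer RNA modifying enzyme (0.42). The 1 other probe set of YRDC was at −0.14, and 1 of the 2 others of FNDC3A had the opposite sign.

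The largest called change, that of NFKBIB, rests on low signals. NFKBIB, an inhibitor of NF-κB, had 4.56, 5.19 and 5.18 with fibrils against 3.13, 2.60 and 2.50 in the controls, which lie under the filter level. The rise was 2.23 (SE 0.38, adjusted p = 0.0334), and its probe set has the suffix that marks possible cross-hybridization. NFKBIB was called in 0 of the 6 fits without an array, was not among the genes tested without fibrillar replicate 1 or 2, and was read from another probe set without replicate 3 (0.11, adjusted p = 0.953). With all 12 arrays in the fit another of its probe sets was read, at −0.46 (adjusted p = 0.795). NFKBIB was tested only because its fibrillar values brought the mean over the 6 arrays up to the filter level. Its call and its place in the counts that follow are therefore not support for a change of the list. Of 14 NF-κB genes NFKBIB alone was called, and 7, NFKBIB included, lay wholly above and 0 wholly below the controls. That is 50% above, against 10.8% of all genes, and the median was 0.27 (0.17 without fibrillar replicate 1). NFKBIZ, a nuclear cofactor of the pathway, differed by 0.68 (adjusted p = 0.0709).

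Among the genes that fell, RNF145 and LPCAT1 had the smallest p-values. RNF145, a ubiquitin ligase of the endoplasmic reticulum that acts on sterol sensing, had 10.08, 10.20 and 9.97 with fibrils and 10.80, 10.80 and 10.77 in the controls. The groups lay far apart for their spread, and the change was −0.70 (SE 0.07, adjusted p = 0.00331), with −0.69 at its other probe set. LPCAT1, which adds an acyl chain to lysophosphatidylcholine, had 7.78, 7.92 and 7.93 against 8.75, 8.60 and 8.77, a change of −0.83 (SE 0.09, adjusted p = 0.00331). The list of fatty acid and phospholipid synthesis, with 20 tested genes, also held RNF145, a ubiquitin ligase. Like every list here, it was drawn up with earlier results of these data known, so its called members are not separate support. In it these 2 fell and 0 rose in the limma test. Of the 20, 6 lay wholly above and 3 wholly below the controls (30% and 15%, against 10.8% and 8.86% of all genes), and the median was 0.03. ATP8B1, a flippase of the plasma membrane, fell by 0.55, from a probe set marked for possible cross-hybridization. MLEC, a lectin of the endoplasmic reticulum, fell by 0.55, with its 1 other probe set at −0.18. Averaged over its probe sets MLEC changed by −0.36 and was not called (limma adjusted p = 0.136).

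Several genes that fell act in transcription, translation and protein turnover. EIF5A, a translation elongation factor, had 8.85, 9.14 and 8.84 against 9.52, 9.63 and 9.50, a change of −0.61 (SE 0.09, adjusted p = 0.0177). Its other 2 probe sets were at −0.33 and −0.25. Averaged over its probe sets EIF5A changed by −0.39 and was not called (limma adjusted p = 0.117). GPS1, a subunit of the COP9 signalosome, had 5.88, 5.94 and 6.19 against 6.95, 6.84 and 6.97, a change of −0.92 (SE 0.14, adjusted p = 0.0215), the only call among 38 COP9 signalosome and proteasome genes. In both genes the groups were well separated. POLR2F, a subunit shared by the RNA polymerases, fell by 0.63 and RPP25L by 0.65. GTF2H3, a subunit of the transcription factor TFIIH, had 9.24, 8.78 and 8.59 against 9.51, 9.69 and 9.70 (−0.76, SE 0.14, adjusted p = 0.0411), from a probe set marked for possible cross-hybridization, and its other probe set had a change of 0.13. PPP1CA, a catalytic subunit of protein phosphatase 1, fell by 0.51, the homeobox factor TLX2 by 0.50, FKBP1B, which binds calcium release channels, by 0.48 and CCDC152 by 0.42. The probe set of CCDC152 is also marked for possible cross-hybridization, and its 1 other probe set had a change of 0.32. SPDYE2 (−0.97) and POLR2J4 (−0.89) also fell, but each has near-identical copies elsewhere in the genome and its signal may come from more than 1 gene. EIF5A and GPS1 were called in 3 of the 6 fits without an array, and GTF2H3 in 2, with adjusted p up to 0.108, 0.139 and 0.166.

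The genes that rose were ordered by array. Fibrillar replicate 2 was the least changed of the fibrillar arrays in 28 of the 33 genes (84.8%, against 40% of all genes tested, taken towards their change), and replicate 1 the most changed in 21. The mean rises over the 33 genes were 0.94, 0.57 and 0.86 in replicates 1, 2 and 3. The 15 genes that fell had mean falls of 0.61, 0.65 and 0.73. The 3′ less 5′ signal, a measure of RNA quality and labelling, had the same order in the fibrillar arrays, 0.81, 0.49 and 0.64 for GAPDH and 3.06, 2.48 and 2.78 for ACTB. In the controls it was 0.47 to 0.52 and 2.34 to 2.65. Its part in the changes was not tested. In RNA of whole cultures, a change in the share of cells of a kind and a change in RNA per cell cannot be told apart.

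**Figure D3:**
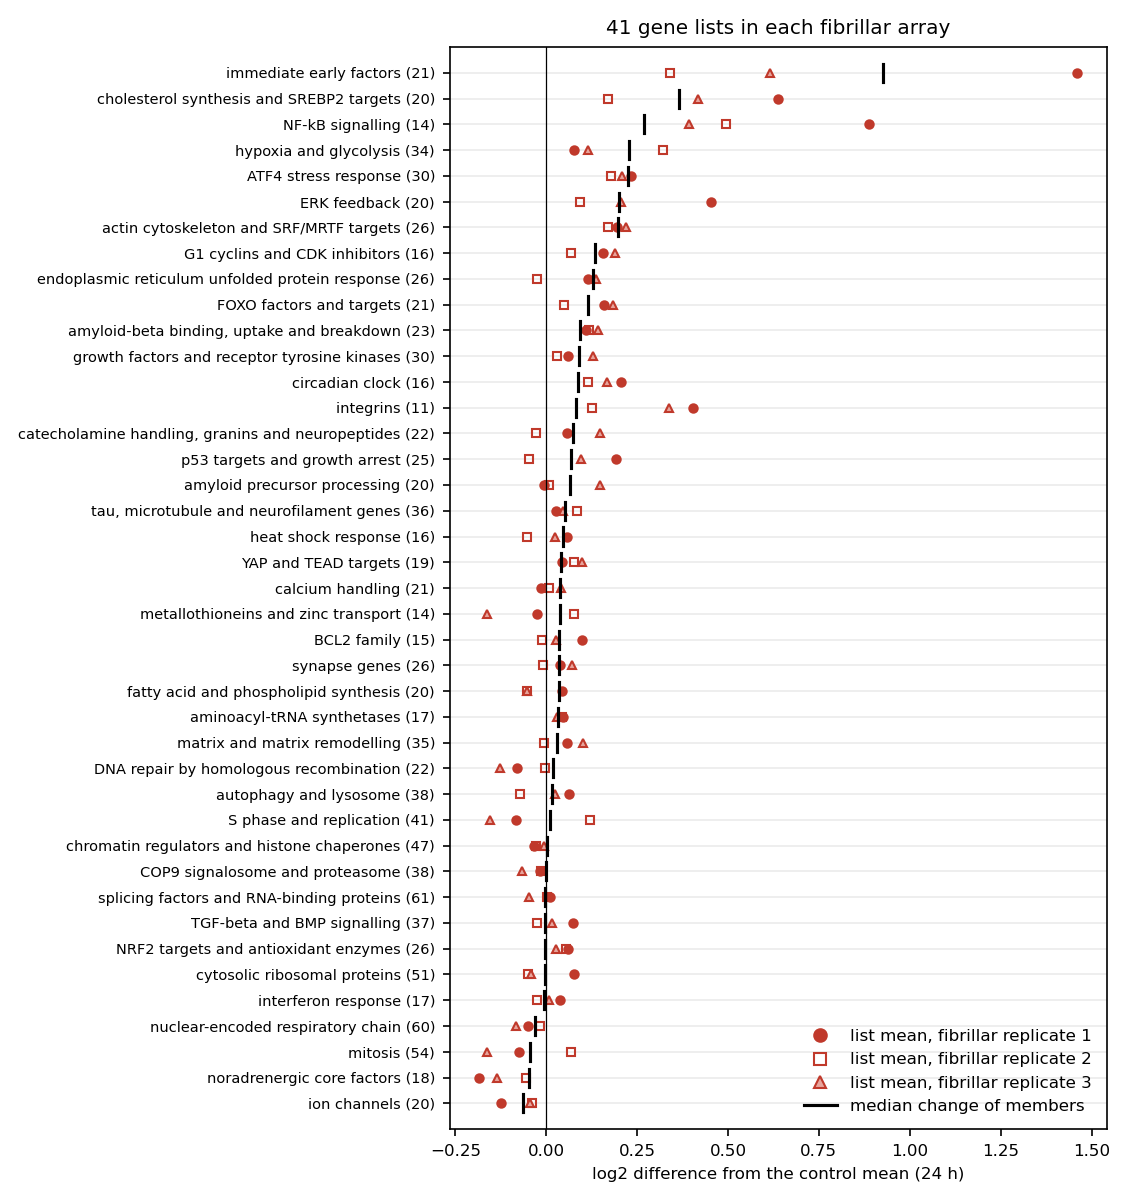
Mean log2 difference from the control mean over the tested members of each list, with 1 point for each fibrillar array; the black bar is the median change of the members. The immediate early list lies 1.46, 0.34 and 0.62 above the controls in replicates 1, 2 and 3, whereas the ATF4 list lies at 0.23, 0.18 and 0.21.

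The ATF4 list, of genes for amino acid supply and stress, differed less between the fibrillar arrays, with list means of 0.23, 0.18 and 0.21 in replicates 1, 2 and 3. Of its 30 tested genes ASNS alone was called, 12 lay wholly above and 1 wholly below the controls (40% and 3.33%, against 10.8% and 8.86% of all genes), and the median was 0.22. DDIT3, also called CHOP, had 7.03, 6.17 and 6.65 against 5.68, 5.44 and 5.87 (0.95, SE 0.22, adjusted p = 0.0809), without overlap, and SLC7A11, the cystine transporter, differed by 0.83 (adjusted p = 0.0828). In the hypoxia and glycolysis list 0 of 34 genes were called by limma, 13 lay wholly above and 1 wholly below the controls (38.2% and 2.94%), and the median was 0.23. Its list means were 0.08, 0.32 and 0.11, highest in replicate 2. PFKFB3, a regulator of glycolysis, differed by 0.50 (adjusted p = 0.0606).

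In several other lists limma called 0 genes. Over all genes 10.8% lay wholly above and 8.86% wholly below the controls. The nuclear-encoded respiratory chain had 2 of 60 genes wholly above and 14 wholly below (3.33% and 23.3%), with a median of −0.03, and NDUFV1, a complex I subunit, at −0.38 (adjusted p = 0.0879). Mitosis genes had 1 of 54 on each side (1.85%, median −0.05), and cytosolic ribosomal proteins had 0 of 51 on either side (−0.00). Noradrenergic core factors had 0 of 18 wholly above and 4 wholly below (22.2%, median −0.05), among them LMO3, with 6.07, 6.86 and 6.54 against 7.46, 7.15 and 7.35 (−0.83, adjusted p = 0.0744). Centring each array on its median turned the medians of the respiratory chain, mitosis, ribosomal protein and noradrenergic core lists to 0.04, 0.03, 0.07 and 0.03. In all, 18 of the 48 called genes stood in a pathway list and 30 in none.

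Of the amyloid lists 0 genes were called by limma with the 6 arrays. APP had 9.93, 10.72 and 10.93 with fibrils against 9.71, 9.71 and 9.96, so fibrillar replicate 1 lay below a control, and the difference of 0.74 (SE 0.19, adjusted p = 0.112) did not pass. Replicate 1, the highest array for the immediate early genes, was the lowest fibrillar array for APP, and 1 of the 2 other probe sets of APP had the same sign. Without fibrillar replicate 1 APP was called, at 1.04 (adjusted p = 0.000813), and with all 12 arrays in the fit it was called at 0.74 (adjusted p = 0.0454). That was the only call of APP in the 6 fits lacking an array, and without fibrillar replicate 3 it differed by 0.53 (adjusted p = 0.330). Averaged over its probe sets APP differed by 0.30 and was not called (limma adjusted p = 0.408). With 12 arrays 1 of 20 genes of precursor processing was called higher and 1 lower, and 1 of 23 genes of Aβ binding, uptake and breakdown higher. Over all genes 1.19% were called in that fit. BACE1, the β-secretase, differed by 0.20 (adjusted p = 0.405) and MAPT, the gene of tau, by −0.12 (adjusted p = 0.846). In the precursor processing list, 3 of 20 genes lay wholly above and 3 wholly below the controls (15% each, against 10.8% and 8.86% of all genes, median 0.07), with APH1A, a γ-secretase subunit, at −0.41 (adjusted p = 0.105). Over 23 genes of Aβ binding, uptake and breakdown 7 and 3 did (30.4% and 13.0%, median 0.09), with PICALM, an endocytic adaptor, at 0.40 (adjusted p = 0.0678) and CTSD, a lysosomal protease, at −0.70 (adjusted p = 0.191). Over 36 tau, microtubule and neurofilament genes 6 and 3 did (16.7% and 8.33%, median 0.05), and TUBB2A, a β-tubulin, lay just outside the threshold at 0.44.

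The same probe sets were read in the oligomeric arrays and their 6 h controls, where both the peptide's form and the hours differ from the fibrillar comparison. In that comparison 0 of 11781 genes were called by limma, and 327 (2.78%) had an unadjusted p under 0.05. Of the 33 genes that rose with fibrils, 13 had the same sign with oligomers, with a median of −0.02 and a range from −0.24 to 0.39, against a fibrillar median of 0.68. Of the 15 that fell, 8 had the same sign, with a median of −0.02 and a range from −0.20 to 0.46, against −0.63. In all, 21 of the 48 called genes had the same sign in both comparisons, as did 5823 of all 11781 genes tested. Nothing is read from these counts of signs. The difference of the responses was tested over 11774 genes with all 12 arrays, and 5 (0.0425%) were called. They were ITGA2 (1.40), RNF145 (−0.65), LPCAT1 (−0.77), GTF2H3 (−1.22) and SPDYE2 (−1.11), with limma adjusted p-values of 0.0219 to 0.0367. For the other 43 called genes a difference was not shown, and RHOB (1.06) and ACTA2 (1.11) came nearest, with an adjusted p of 0.0542 each. The count of 5 was 29 without fibrillar replicate 1, 64 without fibrillar replicate 2, 6 without 24 h control replicate 2, 1 without 6 h control replicate 1, and 0 without any 1 of the other 8 arrays.

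The levels in the 4 groups are given side by side, since the comparisons of fibrils with either control share arrays. The called genes were chosen in part by their 24 h control values, so these levels are a description with no test. Of the 33 genes that rose, 28 had a higher level in the 6 h control than in the 24 h control (84.8%, against 51.1% of all genes). In 19 of them the 6 h controls lay wholly above the 24 h controls (57.6%, against 18.4%), and in 1 wholly below (3.03%, against 14.4%). Of the 15 that fell, 3 lay wholly above and 7 wholly below (20% and 46.7%). ITGA2 had means of 9.79 in the 6 h control, 9.66 with oligomers, 8.40 in the 24 h control and 9.66 with fibrils. ACTA2 had 8.55, 8.62, 7.39 and 8.57 in the same order, so that in both genes the 24 h control stood apart from the other 3 groups. TNFRSF12A, at 9.41, 9.23, 7.98 and 8.79, lay between with fibrils. HMGCS1, at 7.61, 7.75, 7.71 and 9.07, and MSMO1, at 9.06, 9.01, 9.12 and 10.15, were instead high only in the fibrillar group. LPCAT1, at 8.72, 8.66, 8.71 and 7.88, and GPS1, at 6.92, 6.99, 6.92 and 6.00, were low in the fibrillar group alone.

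**Figure D4:**
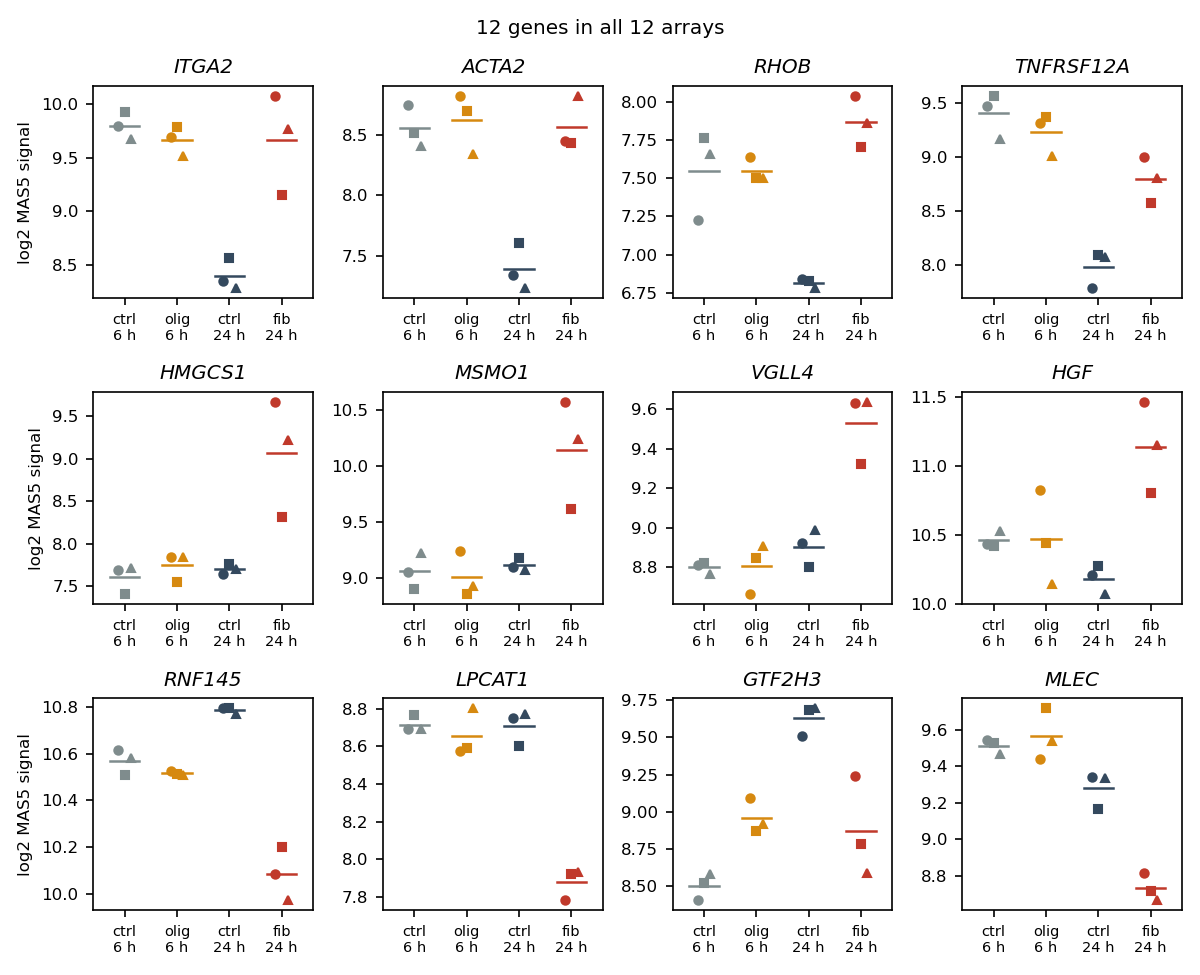
Log2 signal of 12 called genes in all 12 arrays, by group (ctrl, control; olig, oligomeric; fib, fibrillar), with lines at the means and circles, squares and triangles for replicates 1, 2 and 3; each panel has its own axis. In ITGA2 and ACTA2 the 24 h control is the group that stands low, with means of 8.40 and 7.39, whereas in HMGCS1 and LPCAT1 the fibrillar group differs from the other 3.

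Other probe sets of the called genes gave a further reading of the same RNA. Of the 48 genes, 27 had 46 other probe sets above the filter. The sign was that of the called probe set for 36 of these 46, and 2 of them were called themselves. Over all genes tested, 55.0% of 10317 other probe sets had the sign of the brightest. Of the 48 called probe sets, 4 carry the mark for possible cross-hybridization (x) and 16 the mark for sequence shared by several transcripts (s).

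Probe sets with several symbols or none were tested apart from the genes. Of 5209 above the filter, 1052 with several symbols and 4157 with none, 2 (0.0384%) were called by limma, both lower with fibrils, and 674 had an unadjusted p under 0.05. The first changed by −0.92, from 8.69 to 7.77 (adjusted p = 0.0184), and the second by −0.84 (SE 0.12, adjusted p = 0.0369). They carry 5 and 4 symbols, so no gene is named for them. The count was 0 without any 1 of the 24 h controls and 70 and 31 without fibrillar replicates 1 and 2.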

How the data were processed

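The authors deposited log2 probe set signals of 12 arrays, and MAS5 is the tool that the submitters' processing notes name; its version and other upstream steps are not given in the sources used here. On the linear scale the mean between the 2nd and 98th percentile was 100.0 on each array, so no further normalization was applied. Of 54675 probe sets, 62 were controls, 41097 carried 1 symbol, 1801 several and 11721 none. The 6 arrays of 24 h were fitted with limma (version 3.58.1, R 4.3.3, tables read with the package data.table, version 1.17.8), using a mean-variance trend and Benjamini-Hochberg adjustment over all 11781 genes, 5827 of them with several probe sets above the filter. For arrays their number limits the precision. The replicate numbers were not used as pairs, since no label says what they mark. Deviations from the group mean correlated at 0.029, 0.086 and 0.066 between same-numbered arrays. Between arrays of different numbers the correlations ran from −0.069 to 0.011. Deviations from a group mean cancel within the group, so these values are tied to those of same-numbered arrays and are not a separate observation. Whether the numbers mark pairs was not tested.

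Simulated data with 100 genes changed 1.5-fold and 100 changed 2-fold gave 37% and 67% recovered, with 5 false among 109 calls. The simulated noise was independent between genes and arrays, with no shift shared across an array. The share of false calls may therefore differ in the real arrays, where single arrays moved the calls strongly. Named by rule were the called genes, up to 12 in each direction with the largest change first, up to 3 members of a list in each direction by p, and a short fixed set that includes APP, BACE1, MAPT, FOS and MYC. The members, lists and rules were chosen with earlier results of these data known. Alternatives were other normalizations, filters, probe set summaries, prior variances, array weights, the replicate block, thresholds and each array left out. Promoters were taken from RefSeq (GRCh38.p14) over 250 bases before the start.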

Additional observations from a re-analysis of the deposited data

Results flagged for a closer look

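In 5 genes the response to fibrils at 24 h differed from the response to oligomers at 6 h by a test of the difference itself (limma, adjusted over 11774 genes), with form and hours changed together. For RNF145 the difference was −0.6505, from −0.70 with fibrils and −0.05 with oligomers (adjusted p = 0.0219). For GTF2H3 it was −1.221, from −0.76 and 0.46 (adjusted p = 0.0219), so its oligomeric mean was above its control. For LPCAT1 it was −0.7718, from −0.83 and −0.06, for ITGA2 1.40, from 1.27 and −0.13, and for SPDYE2 −1.106, from −0.97 and 0.13 (adjusted p = 0.0367 for each). Of the 12 fits that left out 1 array, the difference was called in 3 for RNF145, GTF2H3, LPCAT1 and ITGA2 and in 2 for SPDYE2, with adjusted p up to 0.111, 0.111, 0.140, 0.149 and 0.152. The probe set of GTF2H3 carries the mark for possible cross-hybridization, and SPDYE2 belongs to a family of near-identical copies.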

How the results depend on the processing

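Values of named genes were counted over part of the alternatives, without those that changed the filter on level. Of these values 578 kept their direction and side of the threshold, 276 kept the direction but lost the call and 27 gained a call. Another 2 changed sign, NFKBIB with all 12 arrays (−0.46) and the uncalled MAPT without fibrillar replicate 3 (0.0669, against −0.12). With each array left out MAPT ran from −0.201 to 0.0669. The 48 calls became 140 with all 12 arrays (38 of the 48 among them), 30 with no filter on level, 18 when a gene's probe sets were averaged (8 higher, 10 lower), 0 with a constant prior variance, 146 with array quality weights, 233 at an adjusted p under 0.10 and 31 at 1.5-fold or more. They ran from 4 to 202 with each array left out. With the replicate number as a block, a pairing that no label states, the calls were 107, the called differences of response 3 and the called probe sets without a single symbol 57. After quantile normalization the called differences were also 3. With 1 array left out they ran from 0 to 64. The calls among probe sets without a single symbol were 24 with all 12 arrays and ran from 0 to 70 with each array left out. The cause of these shifts was not tested. Signals near the filter level limit what can be read of dim genes such as NFKBIB.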
